A study of Mus musculus with 9 samples.

Results

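Dmwd, Dmpk and Six5 are 3 genes that lie side by side on mouse chromosome 7, and their expression was followed here through 3 kinds of splenic B cell: follicular (FO) B cells with high surface IgD, BDL, which fall in the same FO gate but carry little or no IgD, and marginal zone (MZ) B cells. The genes were chosen by measured values, because Dmwd and Dmpk were among the genes with lower expression in BDL than in FO B cells in these same libraries, and Six5 was taken as the next gene on the chromosome. They are 3 of the 24459 rows, with 23954 distinct gene symbols, in the deposited expression table, and each has 1 row. Dmwd and Dmpk were among the 11597 rows that reached a mean of 0.5 FPKM over all libraries and were tested. Six5 did not reach it and was described only. FPKM are fragments scaled by the length of the transcript and by the mapped fragments of the library, so that levels of different genes are compared per length.

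Spleens came from naive mice, aged 8 to 10 weeks, with no treatment and no genetic change named. The spleens of 5 mice were pooled for each sort, and 3 independent sorts gave 1 library of every subset, so that there were 9 libraries, 3 per subset. FO B cells and BDL were both sorted as B220+, IgM intermediate, CD21 intermediate, CD23+ and CD93-, and differed in the gate on IgD, whereas MZ B cells were sorted as B220+, IgM high, CD21 high, CD23- and CD93-. The sample labels give the strain as C57/BL6 and the study's text gives B10.PL for this experiment, and the choice between these names was not tested. P-values measure the spread between 3 pools of mice, not between single animals. The table columns of the 3 FO libraries, and of no other library, carry an additional letter whose meaning is not given, so that anything it stands for and the FO subset cannot be told apart.

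DMPK is a serine/threonine kinase best known from skeletal muscle, heart and brain, and an expanded CTG repeat in the last exon of the human gene causes myotonic dystrophy. DMWD is a WD repeat protein that binds deubiquitinases, and SIX5 is a homeobox transcription factor that works with EYA cofactors. The 3 genes keep the same order and are tightly packed in mammals, and in patients all of them have been studied for effects of the repeat on neighbouring genes. Little is established about any of them in B cells.

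In the GENCODE M1 annotation of NCBIM37, the assembly that the submitters call mm9, all 3 genes are protein coding and on the plus strand. Dmwd (ENSMUSG00000030410.9) spans chr7:19661598-19668125, Dmpk (ENSMUSG00000030409.8) spans chr7:19669198-19679170 and Six5 (ENSMUSG00000040841.4) spans chr7:19679893-19683694. Between the end of Dmwd and the start of Dmpk lie 1072 bp, and between Dmpk and Six5 lie 722 bp. The whole block is 22097 bp long. The members do not overlap each other, and the one annotated gene that overlaps any of them, the miRNA AC170864.1 within Dmpk on the same strand, has no row in the table. The longest spliced transcripts are of like length, at 2677 nt for Dmwd, 2862 nt for Dmpk and 2853 nt for Six5. The annotation holds 6 transcripts of Dmwd, 21 of Dmpk and 1 of Six5, and the table gives 1 value per gene over all of them.

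Because the genes lie so close to each other, their start regions are shown first. RefSeq promoters (GRCm38.p6, plus strand) run from 250 bases before to 50 bases after each start. The Dmwd sequence is chr7:19075950-19076249, that of Dmpk is chr7:19083608-19083907 and that of Six5 is chr7:19094294-19094593, and each was found once on chromosome 7 of NCBIM37. Capitals mark every match, on either strand, to 7 motifs that were searched: GGGCGG (the GC box), CCAAT (bound by NF-Y), CACGTG (the E box), TATAAA (the TATA box), CCGGAAGT (bound by ETS factors), TTTGGCGC (bound by E2F) and the palindromic motif of NRF1. No match overlapped another.
Dmwd: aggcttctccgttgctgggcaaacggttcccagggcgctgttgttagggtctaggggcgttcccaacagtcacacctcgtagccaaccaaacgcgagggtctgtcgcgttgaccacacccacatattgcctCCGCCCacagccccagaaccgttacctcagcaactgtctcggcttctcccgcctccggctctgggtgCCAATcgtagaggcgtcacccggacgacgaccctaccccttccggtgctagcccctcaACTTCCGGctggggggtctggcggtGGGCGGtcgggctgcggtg
Dmpk: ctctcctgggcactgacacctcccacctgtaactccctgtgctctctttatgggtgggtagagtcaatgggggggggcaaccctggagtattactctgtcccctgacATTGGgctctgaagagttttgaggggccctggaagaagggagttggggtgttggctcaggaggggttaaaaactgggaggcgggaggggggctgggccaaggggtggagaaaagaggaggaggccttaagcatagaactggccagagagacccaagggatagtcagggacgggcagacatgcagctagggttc
Six5: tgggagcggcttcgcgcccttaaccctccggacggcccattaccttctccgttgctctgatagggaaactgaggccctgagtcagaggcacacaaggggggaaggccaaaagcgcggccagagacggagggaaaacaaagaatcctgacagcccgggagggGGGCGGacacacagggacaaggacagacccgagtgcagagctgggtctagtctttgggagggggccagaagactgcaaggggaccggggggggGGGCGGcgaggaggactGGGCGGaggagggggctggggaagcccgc

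The Dmpk start differed from those of its neighbours in base composition. It held 2 CpG dinucleotides, an observed over expected ratio of 0.0863, and 14.1% of the 32851 mouse promoters in the RefSeq set had fewer. The Dmwd start held 25 CpG (ratio 0.804, with fewer in 81.6% of promoters) and the Six5 start held 17 (ratio 0.559, with fewer in 68.6%). The median promoter held 7, with a ratio of 0.384. GC content itself was 64.7% for Dmwd, 58.3% for Dmpk and 66% for Six5.

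The GC box occurred in the Dmwd start (2 matches) and the Six5 start (3 matches), and is in 35.7% of all promoters. CCAAT occurred 1 time each at Dmwd and at Dmpk and is in 37.4% of promoters, and CCGGAAGT occurred 1 time, at Dmwd, and is in 3.89%. The letters CACGTG (7.15% of promoters), TATAAA (13.6%) and TTTGGCGC (0.514%) and those of the NRF1 motif (0.971%) were in none of the 3 windows. Of the searched motifs Dmwd and Dmpk shared CCAAT, the commonest of them.

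Dmwd was the most abundant of the 3 genes. In FO B cells it stood at 7.81, 7.09 and 5.96 FPKM in replicates 1 to 3, in BDL at 2.53, 2.23 and 1.65 FPKM, and in MZ B cells at 0.141, 0.235 and 0.151 FPKM. Every FO library was above every BDL library, and every BDL library was above every MZ library. The mean level was 6.95 ± 0.934 FPKM (SD, n = 3) in FO B cells, 2.14 ± 0.445 in BDL and 0.176 ± 0.0519 in MZ B cells. In FO B cells Dmwd was in the middle of the expressed genes, between the 38.1 and 45.8 percentiles of the rows tested. In BDL it lay between the 17.7 and 20.5 percentiles, and in MZ B cells between the 1.63 and 2.0 percentiles.

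Dmpk followed the same order at a lower level. It stood at 4.49, 3.58 and 3.36 FPKM in FO B cells and at 1.16, 1.08 and 0.315 FPKM in BDL. In MZ B cells it was at 0.0761 and 0.113 FPKM in replicates 1 and 2 and is listed at 0 in replicate 3. The 3 subsets did not overlap for Dmpk either. FO B cells had a mean of 3.81 ± 0.600 FPKM (SD, n = 3) and BDL one of 0.852 ± 0.467. Within BDL, replicate 3 was the lowest for all 3 genes, and for Dmpk it stood far below the other two.

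Six5 was close to background in all subsets. It was at 0.0778, 0.0187 and 0.0843 FPKM in FO B cells, at 0.0317, 0.0170 and 0.00491 FPKM in BDL and at 0.0712, 0.0723 and 0.0660 FPKM in MZ B cells. The FO and BDL libraries overlapped, and so did the FO and MZ libraries, while the 3 BDL libraries were all below the 3 MZ libraries. Six5 was thus hardly detected in FO B cells, where the adjoining Dmpk was highest.

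**Figure D1:**
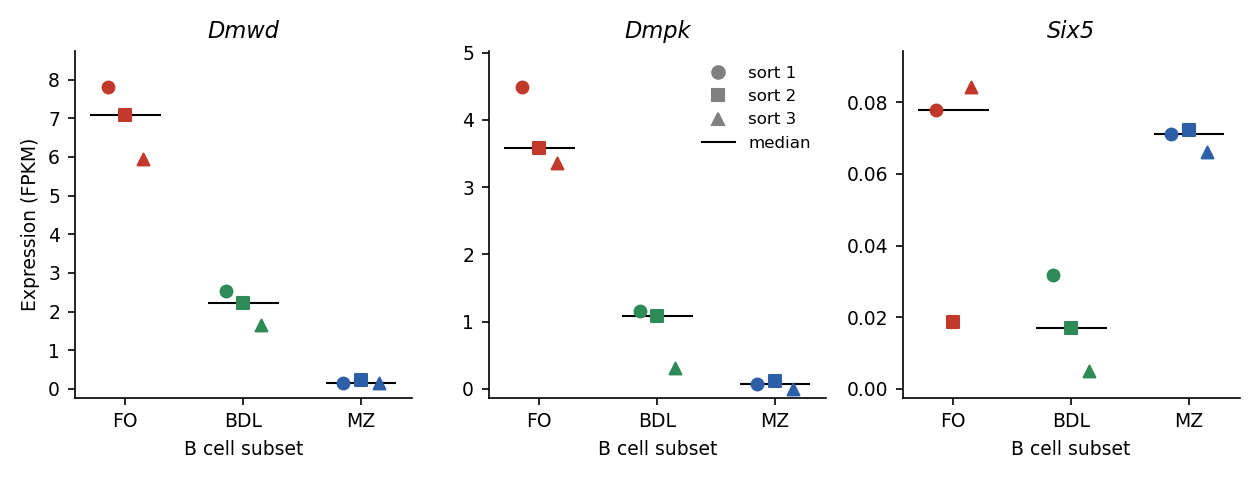
Expression (FPKM, linear axes with a range of their own) of Dmwd, Dmpk and Six5 in FO B cells, BDL and MZ B cells. Each marker is 1 library, its shape gives the sort, and the bar is the median of 3 libraries. Dmwd and Dmpk step down from FO to BDL to MZ with no overlap between subsets, and all Six5 values lie under 0.1 FPKM.

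The number of fragments behind these values had to be estimated, from how far apart the smallest nonzero values of each library are, because the deposited values are FPKM without counts. By that estimate 1 fragment per kilobase was worth 0.0137 to 0.0184 FPKM in the different libraries. Dmwd then rested on about 943 to 1245 fragments per FO library and 322 to 379 per BDL library, and on about 20.6, 40.7 and 22.0 in the MZ libraries. Dmpk rested on about 568 to 765 fragments in FO B cells, on 186, 193 and 65.6 in BDL, and on 11.9 and 20.9 in the MZ libraries where it is above 0. Six5 had about 30.5 fragments over the 3 FO libraries, 9.12 over the 3 BDL libraries and 34.7 over the 3 MZ libraries.

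The difference between BDL and FO B cells is what selected Dmwd and Dmpk, so it is given as a description without a test. Dmwd in BDL was at 30.7% of its FO level, a log2 difference of -1.67 on the log2(FPKM + 0.1) scale with a standard error of 0.20. Within the 3 sorts the BDL to FO ratio of Dmwd was 0.324, 0.315 and 0.277, which are near to each other. Dmpk in BDL was at 22.4% of its FO level (log2 difference -2.19, standard error 0.459), with within-sort ratios of 0.258, 0.303 and 0.0937. The third sort thus gave Dmpk a far lower BDL value than the other two did, and without that BDL library the log2 difference was -1.67 for Dmpk and -1.50 for Dmwd. Six5 had a log2 difference of -0.42 with overlapping libraries.

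Of all rows tested, 31 (0.267%) were called lower in BDL than in FO B cells. A call needed 2 things of limma, a Benjamini-Hochberg adjusted p under 0.05 and a difference of 2-fold or more. In the order of the adjusted p Dmwd was number 6 of them and Dmpk number 24. The last 2 genes inside the threshold were Mir1896 (log2 difference -1.24) and Nrarp (-1.02), and the first 2 outside it were Mir680-1 (-1.62) and Avpi1 (-1.03). In 10.3% of rows all BDL libraries were below all FO libraries, as they were for both genes. Nothing is read from these shares, since this contrast chose the genes.

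The comparison of MZ with FO B cells was not used in choosing the genes, though it shares the FO libraries with the contrast that was, and it gave larger differences. Dmwd was 39.6-fold lower in MZ B cells by the ratio of means, at 2.53% of the FO level. Its log2 difference was -4.68 (standard error 0.20, adjusted p = 1.90e-06 by limma with Benjamini-Hochberg adjustment). It was lower in all 3 sorts, with MZ to FO ratios of 0.0180, 0.0332 and 0.0254. Dmpk had a log2 difference of -4.64 (standard error 0.459, adjusted p = 0.000154 by limma). Its MZ to FO ratio was 0.0170 and 0.0316 in the first and second sorts, and in the third sort the MZ value is listed at 0. Because 0.1 FPKM was added before taking logarithms, the fitted differences understate these ratios.

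Both genes were thus called as lower in MZ B cells, as were 3.39% of all rows tested. With all MZ libraries below all FO libraries they fell among 22.5% of rows. For each of them the two-sided exact permutation test gave p = 0.1, below which a design of 3 against 3 libraries cannot go. When the rows tested were ordered by the MZ minus FO log2 difference from the lowest upwards, Dmwd was number 26 and Dmpk number 27 of 11597. Six5 did not share this difference, with a log2 difference of 0.11 and an exact permutation p of 1.

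Between BDL and MZ B cells both genes also differed, and these BDL libraries are the same ones that entered the choice. Dmwd was 12.2-fold higher in BDL than in MZ B cells (log2 difference 3.02, standard error 0.20, adjusted p = 2.39e-05 by limma). Dmpk was higher in BDL by 2.45 on the log2 scale (standard error 0.459, adjusted p = 0.00517 by limma), and with 1 FPKM added in place of 0.1 this fell to 0.77, under the 2-fold minimum. The differences within the sorts were 3.45, 2.80 and 2.80 for Dmwd and 2.84, 2.48 and 2.05 for Dmpk. Of all rows tested 3.47% were called higher in BDL than in MZ B cells, and 22.6% had all BDL libraries above all MZ libraries.

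For Six5, the 3 BDL libraries lay below the 3 MZ libraries (log2 difference -0.53, two-sided exact permutation p = 0.1, the smallest possible). Such a separation was found in 16.4% of rows tested, and for Six5 it rests on about 9.12 against 34.7 fragments in all.

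BDL therefore had intermediate levels of Dmwd and Dmpk. In FPKM, the BDL mean lay 28.9% of the way from the MZ mean to the FO mean for Dmwd and 21.1% of the way for Dmpk. On the log2(FPKM + 0.1) scale BDL lay nearer to FO B cells for Dmwd, with differences of -1.67 from FO and 3.02 from MZ. For Dmpk they were -2.19 and 2.45, each with a standard error of 0.459, so neither subset was shown to be nearer. With 1 FPKM added the differences from FO and MZ were -1.35 and 1.41 for Dmwd and -1.40 and 0.77 for Dmpk. Which subset BDL was nearer to thus depended on the scale and on the added constant. The order FO above BDL above MZ, with no overlap between libraries, was found for 224 of the rows tested (1.93%). Of these 224 genes, 2 had an MZ minus FO log2 difference as low as that of Dmpk, and they were Dmpk itself and Dmwd. The value of Dmpk was taken as the limit after it was seen, so this count is a description.

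The level of Dmpk relative to Dmwd was steady in FO B cells. The ratio of their FPKM was 0.575, 0.505 and 0.564 in the 3 FO libraries, with a mean of 0.548 ± 0.0378 (SD, n = 3). In BDL it was 0.458, 0.487 and 0.191, so that 2 libraries were somewhat below the FO range and replicate 3 far below it. In MZ B cells it was 0.541 and 0.480 in replicates 1 and 2, and 0 in replicate 3, where Dmpk is listed at 0 and Dmwd was at 0.151 FPKM, so that the MZ libraries show no steady ratio. The ratio is a description, since both genes were chosen for their BDL values, and a ratio of small values such as those in MZ B cells carries a wide counting error.

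Marker genes of the subsets were also compared. CD23 and CD21 were used in the gates, so Fcer2a and Cr2 give no separate check of the labels. No marker was listed to separate BDL from FO B cells. The B cell genes Cd79a, part of the B cell receptor, and Pax5, the B lineage transcription factor, were high in all subsets, at means of 1367, 1517 and 1062 FPKM and of 181, 193 and 176 FPKM in FO B cells, BDL and MZ B cells. The FO markers Fcer2a (CD23) and Klf2 had means of 496, 427 and 29.6 FPKM and of 439, 330 and 219 FPKM. The MZ markers Cr2 (CD21), Cd1d1, S1pr3 and Dtx1 summed to 193 to 202 FPKM in FO libraries, 161 to 171 in BDL and 803 to 944 in MZ libraries. In Fcer2a and in the MZ marker sum BDL lay closer to FO than to MZ B cells.

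Levels of Dmwd relative to FO B cells are set beside those of some marker genes. The gene for CD23, Fcer2a, whose protein the gates used, was at 5.98% of its FO level in MZ B cells and at 86.2% in BDL. Cr2 (CD21), whose protein the gates also used, was at 322% in MZ B cells and at 76.0% in BDL. Dmwd was at 2.53% in MZ B cells and at 30.7% in BDL, and its BDL value was used in choosing it. The MZ receptor gene S1pr3 rose from 1.15 FPKM in FO B cells to 60.5 FPKM in MZ B cells, and stood at 2.14 FPKM in BDL. In bulk RNA, fewer cells that express Dmwd or Dmpk and less of their RNA in every cell cannot be told apart.

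Of the markers of other cells, those of T cells, apart from Cd2, and of myeloid cells were low. The T cell genes Cd3e, Cd3d, Cd4 and Cd8a stayed at or under 0.797 FPKM, while Cd2, which B cells also express, was far higher, and the 6 myeloid genes summed to between 1.77 and 10.8 FPKM. The myeloid gene Itgam was higher in BDL than in FO B cells by 0.89 on the log2 scale (adjusted p = 0.0208 by limma). Of the 4 erythroid genes Hba-a1 has 2 rows, and both were summed. The sums were 2.22 to 5.90 FPKM in FO B cells, 8.33 to 9.48 in BDL and 4.49 to 7.84 in MZ B cells. Of the erythroid genes Hbb-b1 was higher in BDL than in FO B cells by 1.94 (adjusted p = 0.00542 by limma). Skeletal and smooth muscle, where Dmpk is known to be abundant, were examined with 8 genes, of which Des is listed at 0 in all 9 libraries. Their sum was 15.1 to 18.1 FPKM in FO B cells, 16.9 to 18.95 in BDL and 12.9 to 15.5 in MZ B cells, with FO and BDL libraries overlapping, and Acta1 made up most of it. The 4 plasma cell genes summed to 185 to 222 FPKM in FO B cells, 127 to 205 in BDL and 223 to 293 in MZ B cells, and did not move together. Among them Sdc1 (CD138) was at 1.499, 8.47 and 0.177 FPKM in FO B cells, BDL and MZ B cells, Prdm1 at 0.527, 0.930 and 4.39 FPKM and Irf4 at 179, 137 and 229.7 FPKM. Sdc1 was higher in BDL than in FO B cells by 2.42 on the log2 scale (adjusted p = 0.00147 by limma). No myeloid, erythroid or plasma cell gene was lower in BDL than in FO B cells at an adjusted p under 0.05. Of all rows tested 1.91% were called between BDL and FO B cells. The part of the myeloid, erythroid, muscle and plasma cell genes in the levels of Dmwd and Dmpk was not tested.

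Surrounding genes were next examined, and their choice by position used no expression values. Within 250 kb on either side of the block, 30 genes are annotated. Of these 8 have no row, 9 were under the minimum of 0.5 FPKM and 13 were tested. None of the 13 was called between BDL and FO B cells, in either direction (1.91% of all rows), and none had an adjusted p under 0.05 by limma (7.73% of all rows). At an unadjusted p under 0.05, 3 of them passed, Pglyrp1, Eml2 and Snrpd2, or 23.1% against 24.3% of all rows. With the sort date as a block, Pglyrp1 (adjusted p = 0.0146 by limma) and Snrpd2 passed by the adjusted p without reaching 2-fold, 2 of 13 against 20.5% of all rows. The adjusted p of Pglyrp1 ran from 0.0146 to 0.217 over 20 alternatives. The median of their BDL minus FO log2 differences was 0.03, against 0.05 for all rows tested. They ran from -0.60 for Pglyrp1 to 2.17 for Mir330, whose whole signal was 9.05 FPKM in 1 BDL library.

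None of the genes nearest to the block was called against FO B cells, in BDL or in MZ B cells. Rsph6a, 1.80 kb upstream of Dmwd and coding for a component of cilia and sperm tails, was at or under 0.0345 FPKM and not tested. Sympk, a scaffold of the 3' end processing machinery 21.6 kb upstream, was at 28.5 ± 3.06 FPKM in FO B cells, 28.96 ± 0.746 in BDL and 23.7 ± 1.68 in MZ B cells (SD, n = 3), with log2 differences from FO of 0.03 and -0.27. Fbxo46, coding for an F-box protein 21.5 kb downstream of Six5, was at 4.08 ± 0.817, 4.55 ± 1.32 and 3.03 ± 1.10 FPKM. It had a level in FO B cells close to that of Dmpk but differed from FO by 0.14 in BDL and -0.46 in MZ B cells. Qpctl, a glutaminyl cyclase 41.9 kb downstream, was at 4.42, 3.91 and 3.94 FPKM, and Snrpd2, a core spliceosome protein 51.4 kb downstream, at 75.3, 100.6 and 78.0 FPKM. On the upstream side the next tested genes were Irf2bp1, a partner of the repressor IRF2, at 11.1, 12.8 and 9.81 FPKM, and Mypop, at 0.861, 0.757 and 1.63 FPKM.

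**Figure D2:**
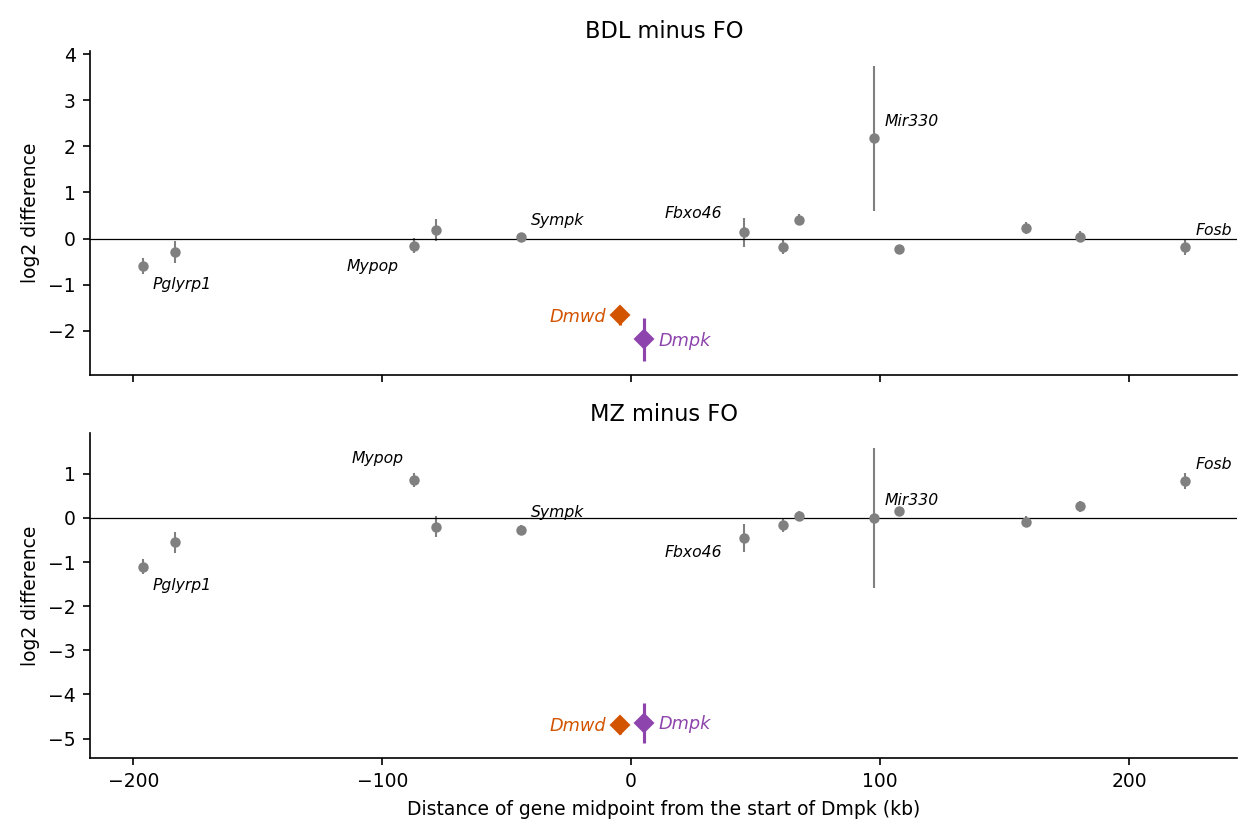
Log2 difference of each tested gene within 250 kb, for BDL minus FO (top) and MZ minus FO (bottom), against the distance of the gene midpoint from the start of Dmpk in kb. Points are fitted values and bars their standard errors. Dmwd and Dmpk stand at -1.67 and -2.19 in the upper panel and at -4.68 and -4.64 in the lower, with Sympk and Fbxo46 on either side of them between -0.46 and 0.14.

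Between MZ and FO B cells, 1 of the 13 neighbours was called, against 8.92% of all rows tested, and 3 had an adjusted p under 0.05 by limma, against 27.1% of all rows. With the sort date as a block 5 did, Sympk and Fbxo46 in addition, against 38.8% of all rows. The one called was Pglyrp1, an antibacterial peptidoglycan recognition protein 185.8 kb upstream, at 31.3 ± 3.79 FPKM in FO B cells, 20.6 ± 2.54 in BDL and 14.6 ± 3.24 in MZ B cells (SD, n = 3). Its MZ minus FO difference was -1.11 (adjusted p = 0.00176 by limma), and it was -0.99, short of a 2-fold change, without MZ replicate 1. Mypop, a Myb-related transcription factor 74.5 kb upstream, was higher in MZ B cells by 0.86 (adjusted p = 0.00624 by limma). Fosb, an AP-1 transcription factor 204.4 kb downstream, was higher by 0.83 (adjusted p = 0.0101 by limma).

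Between BDL and MZ B cells 2 neighbours were called (7.8% of all rows), both of them lower in BDL. They were Mypop at -1.01 (adjusted p = 0.00295 by limma) and Fosb at -1.02 (adjusted p = 0.00395 by limma), and neither was called in every alternative. Eml2, a microtubule-associated protein, was lower by 0.39 on the log2 scale without reaching a 2-fold change, so that 3 neighbours had an adjusted p under 0.05, against 28.1% of all rows. With the sort date as a block 9 of the 13 did, Pglyrp1 among them (0.51, adjusted p = 0.00973 by limma, the lowest of 20 alternatives that reached up to 0.183), against 42.7% of all rows. No tested neighbour was called in all 3 contrasts, of which BDL against FO had chosen Dmwd and Dmpk. Pglyrp1 had FO above BDL above MZ within each sort, but BDL replicate 2 (18.1 FPKM) was below MZ replicate 3 (18.3 FPKM). With the sort date as a block its adjusted p was under 0.05 by limma in all 3 contrasts, and only MZ against FO reached a 2-fold change.

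How often neighbouring genes fall together was described over all chromosomes. Of 10256 pairs of tested genes that follow each other on a chromosome, 44 had both genes called lower in MZ B cells relative to FO. Of single rows tested 3.39% were so called. Ordered by the smaller of the 2 changes in a pair, Dmwd and Dmpk came first at -4.64. They were chosen as neighbours that were both low in BDL against the same FO libraries, so this place is a description. The next pair was that of the p38 kinase genes Mapk12 and Mapk11 at -3.13, followed by Zfp318 and Crip3 at -2.60. Zfp318 is known to be needed for IgD expression in B cells.

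**Figure D3:**
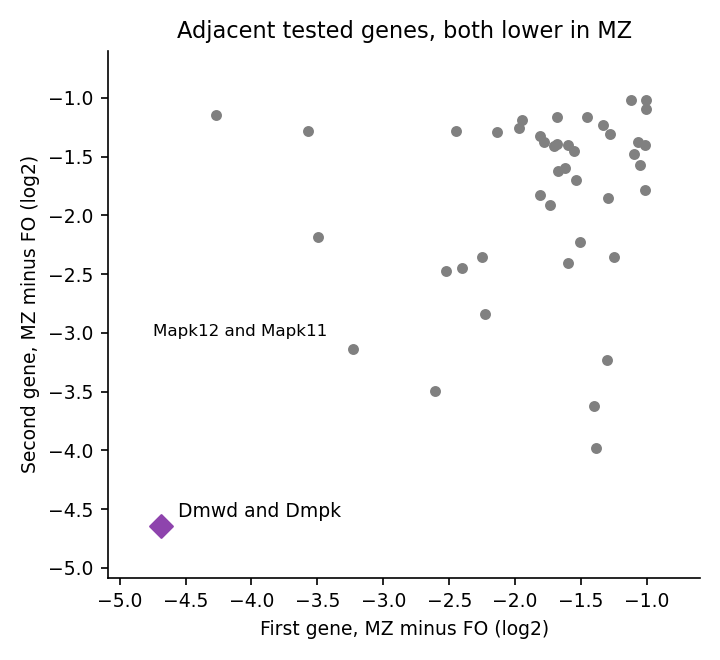
MZ minus FO log2 difference of the first gene (horizontal axis) and the second gene (vertical axis) of the 44 pairs of adjacent tested genes that were both called lower in MZ B cells. Each point is 1 pair. Dmwd and Dmpk, the diamond at -4.68 and -4.64, lie farthest towards the lower left, and Mapk12 and Mapk11 are at -3.23 and -3.13.

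Genes with a profile like those of Dmwd and Dmpk were named by the root mean square difference of centred log2(FPKM + 0.1) values over the 9 libraries, with no test. Among 11596 other rows the nearest to Dmpk was Dmwd, at a distance of 0.445. It was followed by Crip3 (0.542), a LIM domain protein, Slc4a11 (0.570), a membrane transporter, Mapk12 (0.658) and Cdkl1 (0.716), a kinase related to the cyclin-dependent kinases. The nearest to Dmwd was Cacna1i (0.433), coding for a T-type calcium channel, followed by Dmpk (0.445), Cdkl1 (0.479), Slc4a11 (0.521) and Wfdc17 (0.572). Cacna1i was much more abundant than Dmwd, at 31.5 FPKM in FO B cells, 18.8 in BDL and 1.58 in MZ B cells. In BDL it kept more of its FO level than Dmwd did. All points of such a profile share the subset steps, so many genes that fall from FO to MZ come near. Dmwd and Dmpk were also both chosen for the step from FO to BDL in these libraries, so their nearness was partly given by the choice.

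When each profile was first scaled to unit SD, so that the size of the change no longer counted, Dmwd moved to number 18 in the order for Dmpk, and Dmpk to number 45 in the order for Dmwd. The place of Dmwd and Dmpk in each other's order thus depended on whether the size of the change was counted.

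**Figure D4:**
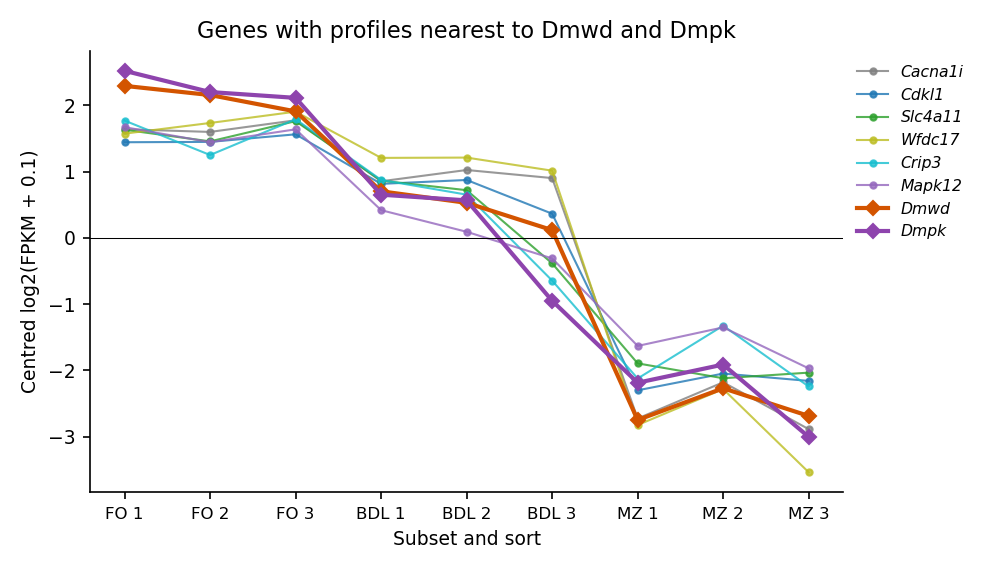
Centred log2(FPKM + 0.1) over the 9 libraries (subset and sort on the horizontal axis) for Dmwd, Dmpk and the 6 other genes among the 5 nearest to either. Each line is 1 gene and each marker 1 library. All 8 genes are above their own mean in FO libraries and below it in MZ libraries, and in BDL replicate 3 Dmpk, Crip3, Slc4a11 and Mapk12 drop below their means while the other 4 do not.

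Dmpk belongs to a family of kinases that includes the MRCK, ROCK, citron, NDR and LATS kinases, and these were measured to see whether others moved with it. Of 10 family genes 8 were tested, while Cdc42bpa and Cit were under the minimum. None was called between BDL and FO B cells, in this or any of the other 5 gene lists that follow. Of the 36 genes tested in the 6 lists, 0 had even an unadjusted p under 0.05 by limma in that comparison, which 24.3% of all rows had. In MZ against FO B cells 1 of the 36 was called, where 8.92% of all rows were, and it went the other way. It was also the only 1 called in BDL against MZ B cells, where 7.8% of all rows were. Cdc42bpb, coding for the kinase MRCK beta, stood at 0.845, 0.782 and 0.722 FPKM in FO B cells, at 1.03, 0.917 and 0.713 in BDL and at 8.13, 8.57 and 9.18 in MZ B cells. All MZ libraries were far above the other 6, which overlapped. The MZ minus FO difference was 3.31 (adjusted p = 1.67e-06 by limma) and the BDL minus MZ difference -3.16 (adjusted p = 3.35e-06 by limma), whereas BDL differed from FO by 0.15 (adjusted p = 0.532 by limma).

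FO B cells therefore had more Dmpk than Cdc42bpb per length and MZ B cells had more Cdc42bpb than Dmpk, with BDL in between, where the median was 1.08 FPKM for Dmpk and 0.917 for Cdc42bpb. In BDL replicates 1 and 2 Dmpk was the higher of the pair and in replicate 3 Cdc42bpb was. The most abundant family members were Stk38, Rock1 and Lats2. Stk38 (NDR1) was at 39.7 FPKM in FO B cells, 40.8 in BDL and 21.1 in MZ B cells, with an MZ minus FO difference of -0.91 that did not reach 2-fold (adjusted p = 0.00110 by limma). Rock1 was at 23.4, 26.1 and 22.4 FPKM. Rock2 and Lats2 also had an adjusted p under 0.05 by limma in this contrast, with differences of -0.41 and -0.54. With Stk38 and Cdc42bpb, 4 of the 8 family genes tested passed, against 27.1% of all rows. The family median was -0.15 against -0.01 for all rows.

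**Figure D5:**
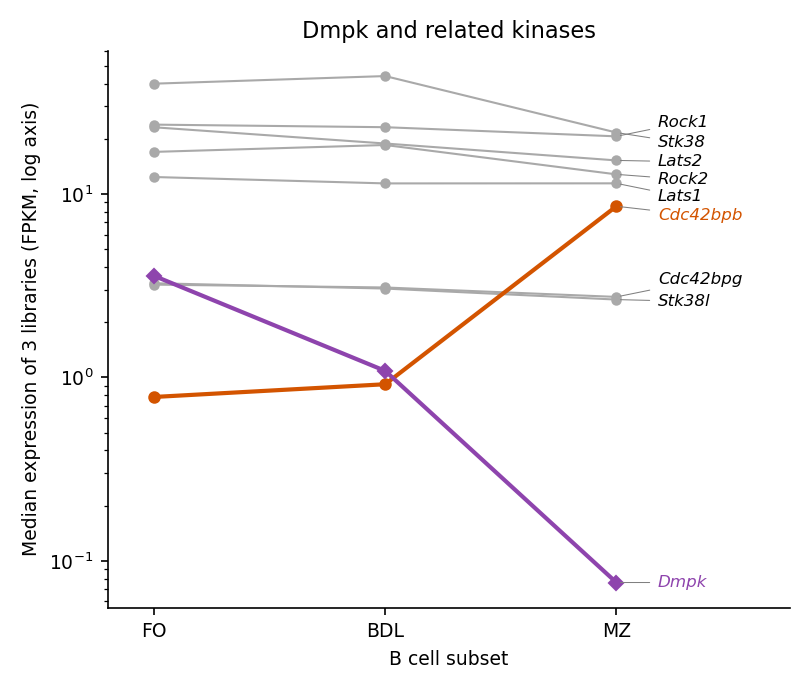
Median FPKM of the 3 libraries of each subset (logarithmic axis) for Dmpk and the 8 tested kinases of its family. Dmpk falls from 3.58 to 1.08 and 0.0761 FPKM, while Cdc42bpb is at 0.782, 0.917 and 8.57 FPKM, and the 7 grey lines stay between 2.66 and 43.9 FPKM.

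Upstream regulators and known substrates of this kinase family were expressed in all subsets. All 7 genes, which include the small GTPases Cdc42, Rhoa and Rac1 and the myosin phosphatase subunits, were tested and 0 were called in any contrast by limma. At an unadjusted p under 0.05, 2 passed in MZ against FO B cells, Cdc42 and Rhoa, where 37.8% of all rows did. The 3 most abundant were Cdc42, at 200.1, 219 and 144.6 FPKM in FO, BDL and MZ B cells, Rhoa, at 168, 195 and 131 FPKM, and Rac1, at 58.4, 66.9 and 51.9 FPKM. By the adjusted p alone none passed between MZ and FO B cells, and 1, Rhoa, passed between BDL and MZ B cells. These counts were 2 and 4 when the sort date was a block.

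For Dmwd, the list held deubiquitinases, among them those it binds, related WD repeat genes and the phosphatase gene Phlpp1. Of 8 genes 6 had a row and were tested, and 0 were called in any contrast by limma, with 2 at an unadjusted p under 0.05 in MZ against FO B cells (33.3%, against 37.8% of all rows). Usp12, whose product DMWD binds, was at 19.5, 19.6 and 20.8 FPKM in FO, BDL and MZ B cells. Usp1 was at 19.3, 21.9 and 15.4 FPKM and Wdr48, the WD repeat activator of these enzymes, at 12.4, 12.1 and 9.49 FPKM. By the adjusted p alone Wdr48 was lower in MZ B cells than in FO (-0.38, adjusted p = 0.0116 by limma), and Phlpp1, a phosphatase, was higher (0.51, adjusted p = 0.024 by limma).

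Of the EYA and DACH cofactors and relatives of Six5, most were under the minimum. Of 11 genes 2 were tested, both cofactors, and 0 were called by limma in any contrast, with 1 at an unadjusted p under 0.05 in MZ against FO B cells, where 37.8% of all rows passed. Eya3 was at 8.99, 9.06 and 9.35 FPKM in FO, BDL and MZ B cells. Eya1 was at 1.24, 1.41 and 0.683 FPKM, with an MZ minus FO difference of -0.79 (adjusted p = 0.00552 by limma).

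The splicing factors known from the RNA disease at the human locus were present in all subsets. Of 9 MBNL and CELF genes 5 were tested, and 0 were called by limma in any contrast or had an adjusted p under 0.05, with 2 at an unadjusted p under 0.05 in MZ against FO B cells (40% of the 5, against 37.8% of all rows). These 2 also passed by the adjusted p when the sort date was a block. Mbnl1 was at 61.6, 65.1 and 85.1 FPKM, Celf2 at 28.7, 30.2 and 30.2 FPKM and Celf1 at 21.0, 22.4 and 17.97 FPKM in FO, BDL and MZ B cells. CTCF and cohesin organise chromatin loops and are known to bind beside the repeat of the human gene DMPK. They were represented by 8 genes, all tested and 0 called by limma in any contrast. Ctcf was at 49.3, 52.1 and 44.2 FPKM. Rad21 (45.7, 49.8 and 31.5 FPKM) and Smc3 had an adjusted p under 0.05 by limma in MZ against FO B cells, at -0.55 and -0.53, and in BDL against MZ B cells, at 0.65 (adjusted p = 0.0174) and 0.72 (adjusted p = 0.00851). At an unadjusted p under 0.05, 5 of the 8 were higher in BDL than MZ B cells, against 39.9% of all rows passing in either direction. With the sort date as a block 5 passed by the adjusted p in MZ against FO B cells and 6 in BDL against MZ B cells.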

How the data were processed

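RNA from 9 libraries of sorted splenic B cells, 3 each of FO B cells, BDL and MZ B cells, was analysed. Subset and sort date came from the sample titles, and libraries of 1 date carry the same replicate number. The authors aligned reads to mouse genome mm9 with TopHat2 2.1.0, estimated transcript abundance with Cufflinks and deposited 1 FPKM per gene and library. The Cufflinks version and gene annotation are not given in the sources used here. The labels describe reads as single end without strand and the study's methods name a stranded kit with 2 files per sample, so the handling of strand is unsure. A table of the authors' own fold changes and p-values was not used.

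Columns, each with 7634 to 8599 rows at 0, were used as deposited without further scaling. Of the symbols, 271 are on more than 1 row, none of them a member, and 87.3% have a GENCODE M1 gene. Relative depth, from whole-fragment steps of genes with transcripts of at least 3000 nt, was 0.915 to 1.22 of FO replicate 1. Between 62.3% and 72.0% of these values lay within 0.1 of a whole fragment, against 20% by chance, so fragment numbers are approximate and no count test was run.

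Values were taken as log2(FPKM + 0.1). Rows whose mean reached 0.5 FPKM were tested with limma 3.58.1 (R 4.3.3, eBayes with a trend), with subset as the only term, all 9 libraries in the fit and Benjamini-Hochberg adjustment over 11597 rows. The fit was tested on simulated data. A few genes of the lists are not reported here. Python 3.11.15, scipy 1.17.1 and matplotlib 3.10.9 were also used. The members and gene lists were chosen with earlier results of these data known. Named were the 3 members, neighbours and list genes that were called, the 3 nearest tested neighbours on each side, the 3 most abundant genes per list, and the 5 nearest profiles. Genes outside this rule that passed by the adjusted p alone, marker genes, the untested Rsph6a, the 3 first adjacent pairs and the genes at the threshold were named after their values were seen.

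Sort dates pair libraries by design. The correlations of same-date deviations from the subset means were 0.147, -0.0623 and 0.0491 between BDL and FO, 0.0238, 0.0077 and 0.0138 between MZ and FO, and 0.1, 0.182 and 0.244 between BDL and MZ B cells. Since the study's analysis had no term for it, the date was tried as a block. Other alternatives were 0.01 or 1 added, other minimums, scalings and eBayes settings, 6 libraries alone, repeated symbols summed, other windows, scaled profiles and each library left out.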

Additional observations from a re-analysis of the deposited data

How the results depend on the processing

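With the sort date as a replicate block, the differences of Dmwd and Dmpk had the same values (MZ minus FO -4.68 and -4.64) with standard errors of 0.156 and 0.296. The block changed no call of at least 2-fold named for the members, neighbours or gene lists. It raised the neighbours with an adjusted p under 0.05 from 0 to 2 (BDL against FO), 3 to 5 (MZ against FO) and 3 to 9 (BDL against MZ) and the list genes from 9 to 16 (MZ against FO) and 8 to 19 (BDL against MZ), and 49 genes in place of 31 were lower in BDL than FO. Dmwd and Dmpk stayed called in MZ against FO B cells in all 20 alternatives each, from -5.25 to -2.75 and from -6.32 to -2.17, with adjusted p from 4.7e-07 to 3.16e-05 and from 3.15e-05 to 0.0013 (limma). With 1 FPKM added, Dmwd differed by -1.35 and Dmpk by -1.40 between BDL and FO, and Dmpk by 0.77 between BDL and MZ, where its adjusted p ran from 0.000609 to 0.0207 over 19 alternatives. It could not be fitted there from the 6 libraries alone, since its mean fell under the minimum.

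Six5 differed by -1.27 (BDL minus FO), 0.37 (MZ minus FO) and -1.64 (BDL minus MZ) with 0.01 added and by -0.058 and -0.072 (BDL minus FO and BDL minus MZ) with 1 added, so its values depend on the constant. The number of neighbours called was 0 (MZ against FO) and 1 (BDL against MZ) within 100 kb, and 1 (BDL against MZ) with 1 added or quantile normalization. Leaving out 1 library gave 0 to 1 in MZ against FO (0 without MZ replicate 1) and 0 to 2 in BDL against MZ (0 without BDL replicate 3, 1 without MZ replicate 1 or 2). The lists gave 2 calls in BDL against MZ with 0.01 added or quantile normalization, and 1 to 2 with 1 library left out. Scaled profiles placed Dmwd at 18 and Dmpk at 45 in each other's order.

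With 1 added, genes called fell from 190 to 78 (higher in BDL than FO), from 31 to 16 (lower), from 642 to 406 (higher in MZ than FO) and from 402 to 267 (higher in BDL than MZ), and 17 and 15 were lower in BDL without FO replicates 1 and 3. Values in MZ B cells rest on few fragments and 3 pools per subset. No alternative reversed a called difference of the members, neighbours or gene lists, and the causes of these shifts were not tested.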
